A study of Homo sapiens with 6 samples.

Results

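The genes described here are 37 genes of the NRF2, glutathione and antioxidant system, chosen by gene name from a table of 58735 genes measured by RNA sequencing in Hep-G2 cells. Hep-G2 is an established human liver cancer line. All 6 libraries were labelled as hepatocytes of the line Hep-G2 and carried the same batch entry, 0DAY. The 3 sh-NC libraries were labelled genotype WT with treatment shcontrol, and the 3 sh-CLGN libraries were labelled genotype CLGN knock down with treatment shCLGN. Per the study's methods, both groups were transduced with a lentivirus that carried a short hairpin RNA and were selected with puromycin, so that the control cells also carried a hairpin, one without a CLGN target. Each group carried 1 hairpin, and loss of CLGN therefore cannot be told apart from any other effect of that hairpin or of the transduced culture. The labels do not say whether the 3 libraries of a group came from separate cultures, and the p-values measure the spread between these libraries, which may be technical.

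NRF2, encoded by NFE2L2, is a transcription factor that KEAP1 holds in the cytoplasm and marks for degradation. When electrophiles or oxidants modify KEAP1, NRF2 accumulates, pairs with a small MAF protein such as MAFG and binds the antioxidant response element in the promoters of detoxifying and antioxidant genes. Among these are enzymes that make glutathione, reduce thioredoxin, detoxify quinones and supply NADPH, the reducing agent on which the glutathione and thioredoxin systems draw. Peroxiredoxins, glutathione peroxidases, superoxide dismutases and catalase remove superoxide and peroxides, and only some of them are classical NRF2 targets. The liver makes glutathione in large amounts, and liver cancers often keep this system active.

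Each library held between 14955816 and 16244639 reads, and every deposited value came out as a whole number of reads within a tolerance of 0.01 when the scaling was undone. The values are FPKM, fragments per kilobase of gene scaled to a common library size, and differences are log2 fold changes of FPKM + 1, sh-CLGN over sh-NC. CLGN itself, which encodes the endoplasmic reticulum chaperone calmegin, stood at 24.1, 21.0 and 26.1 FPKM in sh-NC and 9.48, 8.88 and 8.596 FPKM in sh-CLGN (log2 fold change -1.31 ± 0.0807 SE, adjusted p = 8.35e-06). Of the 12 hepatocyte markers, all tested, 7 (58.3%) were lower and 4 (33.3%) higher at an adjusted p of at most 0.05. Their log2 fold changes ran from -1.62 to 0.72, with a median of -0.31. Over all genes tested, 39.0% were lower and 26.7% higher, and over genes with a mean of at least 10 FPKM 57.3% and 17.2%. The hepatocyte markers summed to 8263 to 8428 FPKM in sh-NC and 8202 to 8693 FPKM in sh-CLGN. Of 8 fibroblast markers, 4 were tested and all 4 were called higher, against 26.7% of all genes tested. The 8 summed to 4.09 to 4.51 FPKM in sh-NC and 9.80 to 10.5 FPKM in sh-CLGN. The filter asked for 1 FPKM in at least 3 libraries. Genes at such levels can reach it through their sh-CLGN libraries alone, which favours higher calls. POSTN was at 0 reads in all libraries, and DCN and THY1 had at most 1 read in any library. Leukocyte markers summed to 68.7 to 76.3 FPKM in sh-NC and 60.8 to 67.9 FPKM in sh-CLGN, nearly all of it LYZ, and endothelial markers to 3.44 to 3.75 and 2.40 to 2.79 FPKM. Mitochondrial genes took 3.25 to 4.02% of the reads in sh-NC, against 5.49 to 5.80% in sh-CLGN, and what part this had in the differences below was not tested. Bulk libraries give relative levels, in which fewer transcripts per cell and fewer cells with the transcript cannot be told apart.

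Of the 37 genes, 35 reached 1 FPKM in at least 3 libraries and were tested with limma together with all 13074 genes that did so. AKR1B10 and AKR1C3 did not reach it. SOD2 has a second row with 0 to 3 reads per library, which was not tested either. At an adjusted p of at most 0.05, 25 of the 35 genes (71.4%) were lower in sh-CLGN and 1 (2.86%) was higher, AKR1C1. Of all genes tested, 39.0% were lower and 26.7% higher by the same rule. The members are abundant, and abundant genes were lower more often. Among genes with a mean of at least 10 FPKM, 57.3% were lower and 17.2% higher, and of the 29 members above that level 22 (75.9%) were lower and 1 was higher. The median log2 fold change was -0.35 over the 35 members, -0.25 over all genes with a mean of at least 10 FPKM and -0.08 over all genes tested.

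With a log2 fold change of at least 1 in size required as well, 3 members were lower (8.57%) and none was higher, against 3.19% of all genes lower and 3.09% higher. The 3 members were GPX2, TXNIP and NQO1. At a mean of at least 10 FPKM, 10.3% of the 29 members were lower by this rule. Of all 4592 genes at that level, 5.16% were lower and 60 were higher. All 3 sh-CLGN libraries lay below all 3 sh-NC libraries for 26 of the 35 members, against 41.5% of all genes tested, and above them for 1 member, against 28.7%. At a mean of at least 10 FPKM, they lay below for 79.3% of the 29 members, against 59.1% of the 4592 genes. They lay above for 1 member and for 855 of these genes.

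**Figure D1:**
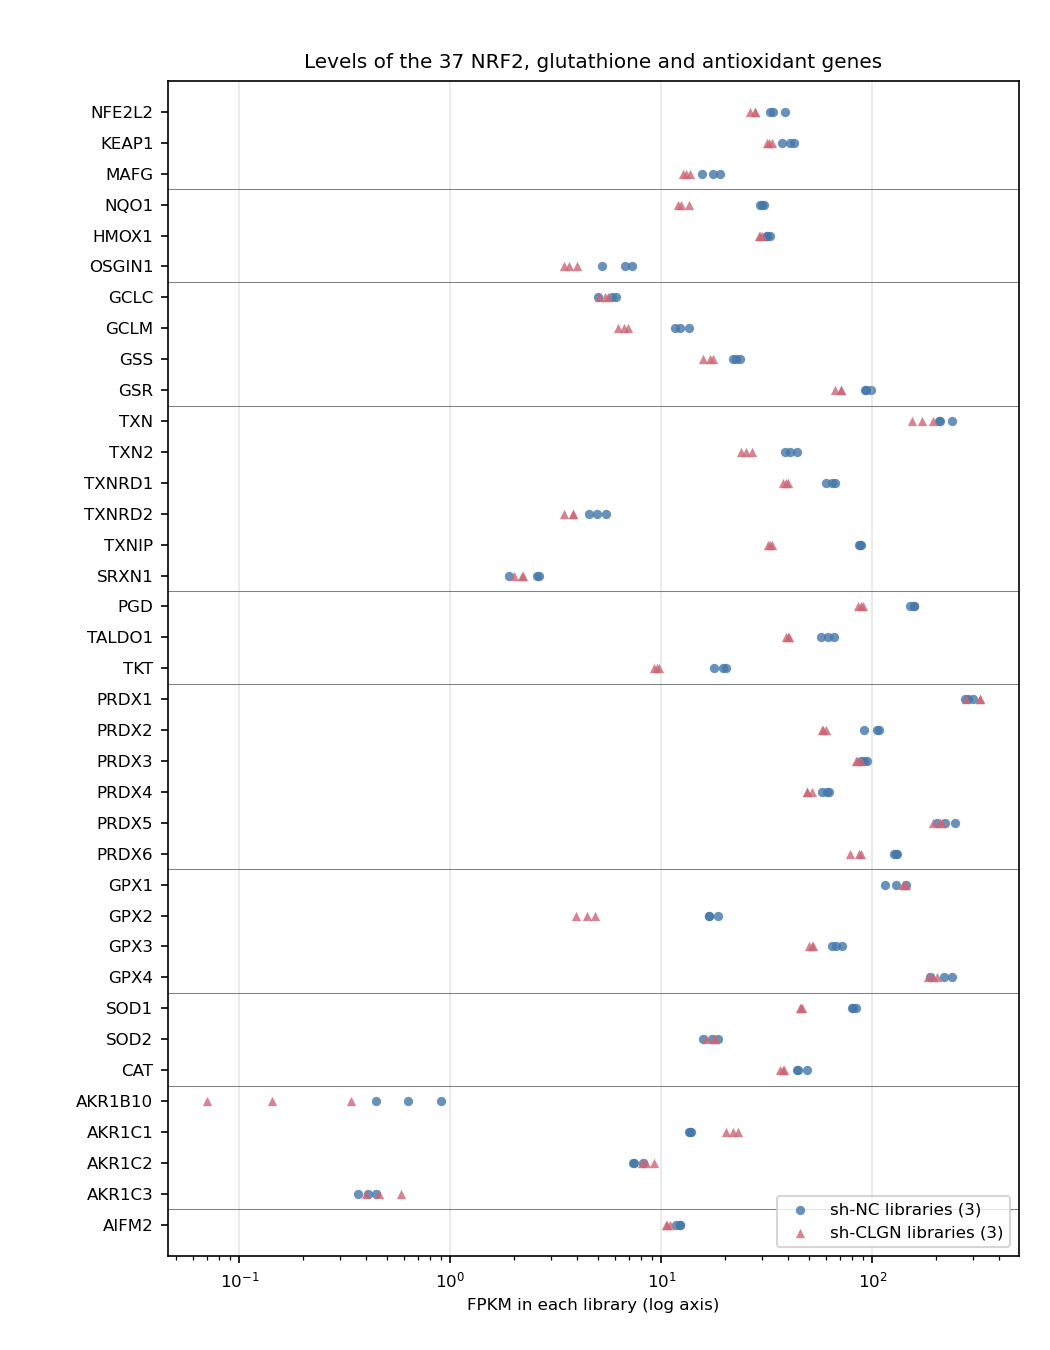
Level of each of the 37 genes in FPKM on a log axis, with 1 circle per sh-NC library and 1 triangle per sh-CLGN library. Grey lines part the groups by role. The sh-CLGN triangles of GPX2 lie at 3.93 to 4.84 FPKM and the sh-NC circles at 16.8 to 18.6 FPKM, whereas for PRDX1, GPX1 and GPX4 the groups overlap.

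Promoter sequence was examined because NRF2 acts on its target genes through the antioxidant response element. The core of the element was written as TGACNNNGC and searched on both strands in windows of 300 bases, 250 before and 50 after each RefSeq gene start (GRCh38.p14). Of the members, 29 had an entry, and 6 of these (20.7%, exact 95% interval 7.99 to 39.7%) held a match in at least 1 window, as did 16.1% of all 27305 genes with an entry. By window, the shares were 16.7% of 42 member windows and 13.3% of all 35116. The interval covers the share of all genes. One match of each of the 6 genes is shown 5′ to 3′ on the strand of the element, with the match in capitals and 10 bases on either side.
GCLM, chr1:93909446-93909474, plus strand: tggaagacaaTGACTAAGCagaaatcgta
GPX2, chr14:64942849-64942877, plus strand: atccccaggaTGACTTAGCaaaaacaggt
TXNRD1, chr12:104215670-104215698, plus strand: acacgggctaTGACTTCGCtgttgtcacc
PGD, chr1:10398853-10398881, minus strand: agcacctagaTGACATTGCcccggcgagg
AIFM2, chr10:70132829-70132857, plus strand: gggcggggcgTGACTCAGCactcgtgctg
KEAP1, chr19:10502784-10502812, plus strand: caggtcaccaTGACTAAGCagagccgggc
These matches begin 34 bases before the RefSeq start of the window in GCLM, 122 in GPX2, 99 in TXNRD1, 201 in PGD, 22 in AIFM2 and 31 in KEAP1. That start can differ from the bounds of the gene spans printed below. The GPX2 match, for example, lies within the span given for GPX2. TXNRD1 held 2 further matches and KEAP1 1. The AIFM2 match also contains TGACTCA, the site of AP-1 factors, which overlaps the element and which 2 members held (AIFM2 and OSGIN1) of the 29 (6.90%), against 6.05% of all genes. No entry was at hand for HMOX1, GSS, GSR, TXN2, PRDX1, PRDX6, SOD1 and AKR1B10. A match is a run of letters and does not show binding, and a window without one says nothing of sites elsewhere in the gene.

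NRF2 and its direct partners were all lower in sh-CLGN, by modest amounts. NFE2L2 (chr2:177227595-177392697) stood at 33.7, 32.6 and 38.6 FPKM in sh-NC and 27.8, 26.3 and 27.7 FPKM in sh-CLGN. The groups did not overlap, the mean in sh-CLGN was 78.0% of that in sh-NC, and the log2 fold change was -0.34 ± 0.069 (SE, adjusted p = 0.00283). KEAP1, the adaptor that delivers NRF2 to its ubiquitin ligase, went from 42.6, 40.9 and 37.3 FPKM to 31.6, 32.3 and 33.4 FPKM (-0.30 ± 0.0587, adjusted p = 0.00237). MAFG, the small MAF partner of NRF2, went from 17.7, 18.9 and 15.6 FPKM to 13.1, 12.7 and 13.6 FPKM (-0.37 ± 0.0726, adjusted p = 0.00233). Neither KEAP1 nor MAFG overlapped between the groups, and the summed level of the 3 genes in sh-CLGN was 78.7% of that in sh-NC. Unlike MAFG, NFE2L2 and KEAP1 were no longer called when the libraries were scaled to read totals (-0.15 and -0.11, adjusted p = 0.0954 and 0.102) or quantile normalized (-0.08 and -0.02, adjusted p = 0.429 and 0.800), and KEAP1 was not called after GC correction either (-0.05, adjusted p = 0.226).

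Among the detoxifying targets the sizes differed widely. NQO1 (chr16:69706996-69726951), the quinone reductase that is the standard reporter of NRF2 activity, stood at 30.1, 29.3 and 30.7 FPKM in sh-NC and 13.5, 12.4 and 12.01 FPKM in sh-CLGN. That is 42.1% of the sh-NC mean, with a log2 fold change of -1.19 ± 0.0554 (adjusted p = 2.76e-06), and the 2 groups were far apart relative to their SDs of 0.692 and 0.758 FPKM. OSGIN1, a stress-induced growth inhibitor, stood at 7.23, 6.75 and 5.25 FPKM in sh-NC and 3.97, 3.47 and 3.63 FPKM in sh-CLGN (-0.65 ± 0.106, adjusted p = 0.000964).

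HMOX1, the heme oxygenase that opens heme to biliverdin, iron and carbon monoxide, stood at 32.8, 31.8 and 31.6 FPKM in sh-NC and 30.0, 29.2 and 28.9 FPKM in sh-CLGN. The groups lay close to each other without overlapping, and its log2 fold change of -0.12 ± 0.0442 (adjusted p = 0.0388) turned to 0.15 after quantile normalization and 0.12 after GC correction, both called (adjusted p = 0.0181 and 0.0479), and to 0.0006 with TPM and 0.07 with read totals. Its call was also lost with voom (adjusted p = 0.0913) and without sh-NC replicate 1, sh-NC replicate 2, sh-CLGN replicate 1, sh-CLGN replicate 2 or sh-CLGN replicate 3 (-0.14 to -0.11, adjusted p = 0.0734 to 0.137). The direction of HMOX1 depended on the scaling, whereas NQO1 and OSGIN1 were called lower in each of the 17 other settings that test for any change.

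Glutathione is built from glutamate, cysteine and glycine by glutamate-cysteine ligase, a dimer of the catalytic subunit GCLC and the modifier subunit GCLM, and then by glutathione synthetase, GSS. The subunits of the ligase had different values. GCLM (chr1:93885205-93909456) stood at 11.6, 12.3 and 13.5 FPKM in sh-NC and 6.68, 6.96 and 6.21 FPKM in sh-CLGN, or 53.0% of the sh-NC mean (-0.82 ± 0.0698, adjusted p = 3.45e-05). GCLC stood at 4.99, 6.12 and 5.85 FPKM in sh-NC and 5.07, 5.59 and 5.41 FPKM in sh-CLGN, and its groups overlapped. Its log2 fold change of -0.06 had a 95% interval of -0.24 to 0.12 (adjusted p = 0.507), which does not overlap the interval of GCLM (-0.98 to -0.66), although the difference between the subunits was not itself tested, and it turned to 0.05 with TPM and 0.10 with read totals.

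GSS was lower without overlap, from 21.9 to 23.5 FPKM in sh-NC and from 15.8 to 17.6 FPKM in sh-CLGN (-0.41 ± 0.0559, adjusted p = 0.000367). GSR, the reductase that returns oxidized glutathione to its reduced form with NADPH, had 92.7 to 98.9 FPKM in sh-NC and 66.7 to 71.3 FPKM in sh-CLGN (-0.44 ± 0.05, adjusted p = 0.000145). GCLM, GSS and GSR were called lower in each of the 17 other settings.

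The thioredoxin system reduces protein disulfides through thioredoxin (TXN in the cytosol, TXN2 in mitochondria) and its NADPH-dependent reductases (TXNRD1 and TXNRD2). TXNIP binds thioredoxin and inhibits it, and SRXN1 repairs overoxidized peroxiredoxins. The largest difference in the group was in the inhibitor. TXNIP (chr1:145992435-145996600) stood at 86.2, 88.2 and 87.4 FPKM in sh-NC and 32.2, 32.7 and 33.6 FPKM in sh-CLGN. The libraries of each group lay within 2 FPKM of each other, the sh-CLGN mean was 37.6% of the sh-NC mean, and the log2 fold change was -1.38 ± 0.0424 (adjusted p = 7.36e-07).

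TXNRD1 (chr12:104215779-104350305) stood at 60.4, 64.3 and 66.5 FPKM in sh-NC and 38.8, 39.7 and 37.9 FPKM in sh-CLGN (-0.70 ± 0.0509, adjusted p = 1.68e-05). Mitochondrial TXN2 stood at 40.9, 43.9 and 38.7 FPKM in sh-NC and 26.8, 25.2 and 23.8 FPKM in sh-CLGN (-0.68 ± 0.065, adjusted p = 5.96e-05). Cytosolic TXN was the most abundant gene of the system in every library and its groups lay closer together, at 207.1, 209.3 and 237.5 FPKM in sh-NC and 193.2, 172.1 and 154.7 FPKM in sh-CLGN (-0.33 ± 0.0896, adjusted p = 0.0117). TXN was not called with no filter on low values (-0.33, adjusted p = 0.0532), with TPM (-0.21), with read totals (-0.14) or after quantile normalization (-0.02, adjusted p = 0.889).

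TXNRD2 was also lower, 4.52 to 5.47 FPKM against 3.46 to 3.82 FPKM (-0.35 ± 0.0771, adjusted p = 0.00482), and lost its call with read totals (-0.19, adjusted p = 0.0602) and after GC correction (-0.06, adjusted p = 0.526). SRXN1 overlapped between the groups, at 2.63, 2.56 and 1.89 FPKM in sh-NC and 2.18, 2.01 and 2.20 FPKM in sh-CLGN. Its log2 fold change was -0.09, with a 95% interval of -0.33 to 0.14 (adjusted p = 0.439), and it turned to 0.04 with read totals and 0.11 after GC correction. Without sh-NC replicate 3, SRXN1 was called lower (-0.20, adjusted p = 0.0472). SRXN1 is a shallow measurement, with as few as 79 reads in a library. Of its exon bases, 84.95% are shared with another annotated gene on the same strand, so that its reads could be split between them or dropped as ambiguous.

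The pentose phosphate pathway supplies NADPH in its oxidative arm, in which PGD (6-phosphogluconate dehydrogenase) acts, and rearranges sugars in its non-oxidative arm through transketolase (TKT) and transaldolase (TALDO1). All 3 enzymes fell. PGD stood at 158.1, 157.5 and 150.4 FPKM in sh-NC and 90.0, 88.8 and 85.6 FPKM in sh-CLGN (-0.81 ± 0.0457, adjusted p = 5.80e-06). TKT stood at 20.3, 19.5 and 17.7 FPKM in sh-NC and 9.19, 9.53 and 9.73 FPKM in sh-CLGN, or 49.5% of the sh-NC mean (-0.94 ± 0.0613, adjusted p = 1.04e-05). TALDO1 stood at 65.5, 61.75 and 57.2 FPKM in sh-NC and 40.4, 39.7 and 39.0 FPKM in sh-CLGN (-0.62 ± 0.0575, adjusted p = 5.37e-05). No library of one group reached the other for any of the 3 genes. Their summed level went from 236 ± 9.58 to 137.3 ± 2.76 FPKM (SD, n = 3), which is 58.2% of the sh-NC level, and each was called lower in each of the 17 other settings.

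**Figure D2:**
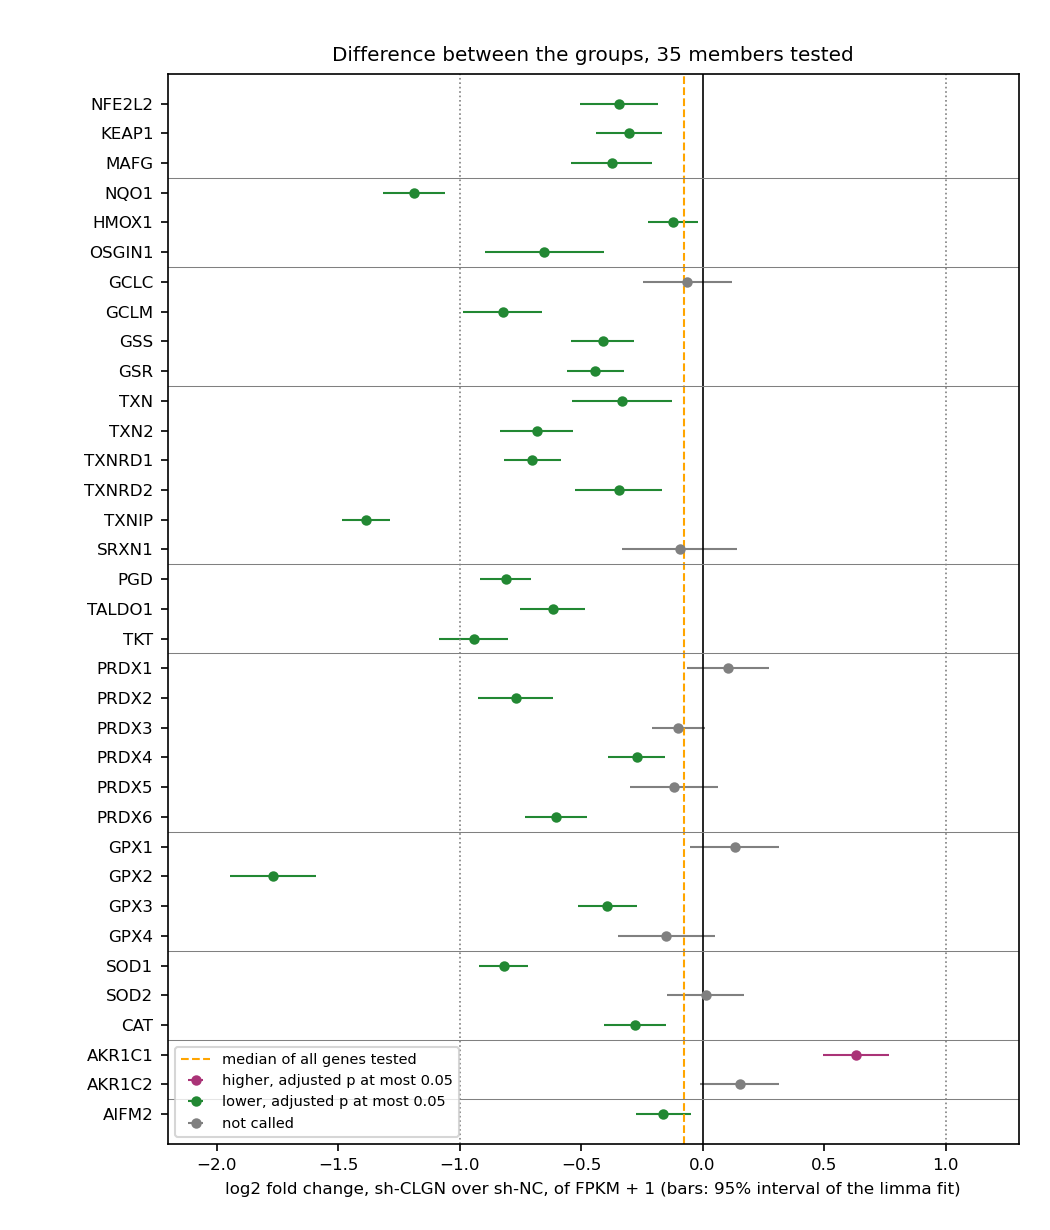
Log2 fold change of FPKM + 1, sh-CLGN over sh-NC, of the 35 genes tested, with its 95% interval from the limma fit. Green marks genes called lower, purple the gene called higher and grey the others, the dashed line is the median of all genes tested (-0.08) and the dotted lines mark a log2 fold change of 1 in size. GPX2, TXNIP and NQO1 lie beyond the left dotted line.

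Peroxiredoxins are abundant thiol peroxidases that reduce hydrogen peroxide, PRDX1, PRDX2 and PRDX6 mainly in the cytosol, PRDX3 in mitochondria, PRDX4 in the endoplasmic reticulum and PRDX5 in several compartments. Their differences varied in size and sign. PRDX2 stood at 107.3, 105.5 and 91.2 FPKM in sh-NC and 60.3, 58.4 and 58.0 FPKM in sh-CLGN (-0.77 ± 0.0672, adjusted p = 3.95e-05). PRDX6 stood at 130.2, 129.1 and 126.7 FPKM in sh-NC and 88.0, 86.9 and 78.55 FPKM in sh-CLGN (-0.60 ± 0.0547, adjusted p = 4.68e-05). Both were called lower in each of the 17 other settings, with no overlap of the libraries.

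PRDX1, the most abundant member in every library, stood at 282.9, 274.1 and 300.1 FPKM in sh-NC and 323.2, 322.9 and 276.8 FPKM in sh-CLGN. Its groups overlapped, because sh-CLGN replicate 3 lay among the sh-NC libraries, and its log2 fold change of 0.10 had a 95% interval of -0.06 to 0.27 (adjusted p = 0.240). PRDX1 was called higher with TPM (0.23, adjusted p = 0.0268), read totals (0.30), quantile normalization (0.46, adjusted p = 0.000536) and GC correction (0.28), and without sh-CLGN replicate 3 (0.18, adjusted p = 0.0409). Its exons overlap those of MMACHC on the other strand over 24.9% of their bases.

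PRDX4 stood at 57.8 to 62.3 FPKM in sh-NC and 48.8 to 51.8 FPKM in sh-CLGN, and its log2 fold change of -0.27 ± 0.0501 (adjusted p = 0.00181) was not called with read totals (-0.08, adjusted p = 0.182) or after GC correction (-0.09) and turned to 0.02 after quantile normalization. PRDX3 stood at 88.8 to 94.7 FPKM in sh-NC and 83.6 to 88.3 FPKM in sh-CLGN, without overlap but with a log2 fold change of only -0.10 (adjusted p = 0.0950), which became -0.12 and was called after GC correction (adjusted p = 0.0124) and turned to 0.03 with TPM, 0.09 with read totals and 0.20 after quantile normalization (adjusted p = 0.00939). PRDX5 overlapped, at 201.8 to 246.5 FPKM in sh-NC and 193.3 to 213.4 FPKM in sh-CLGN (-0.12, adjusted p = 0.214), and its sign turned with TPM and read totals (0.008 and 0.08), it was called higher with quantile normalization (0.19, adjusted p = 0.0309) and GC correction (0.15, adjusted p = 0.0278), and it was called lower without sh-NC replicate 3 (-0.19, adjusted p = 0.0402). As a share of the summed FPKM of the 6 peroxiredoxins, PRDX1 stood at 32.1 ± 2.0% in sh-NC, against 38.8 ± 2.15% in sh-CLGN, PRDX2 at 11.4 ± 0.802% and 7.45 ± 0.165%, and PRDX6 at 14.4 ± 0.230% and 10.7 ± 0.297% (SD, n = 3).

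Glutathione peroxidases use glutathione to reduce peroxides. GPX1 is the common cytosolic enzyme, GPX2 is the enzyme of epithelia and the gut, GPX3 is secreted into plasma, and GPX4 reduces lipid hydroperoxides in membranes and guards cells from ferroptosis. GPX2 (chr14:64939152-64942905) had the largest fold difference of all 35 genes tested, at 18.6, 16.8 and 16.8 FPKM in sh-NC and 4.44, 4.84 and 3.93 FPKM in sh-CLGN. This is 25.3% of the sh-NC mean, from 367 to 390 reads per library in sh-NC and 95 to 119 reads after knockdown (-1.77 ± 0.0768, adjusted p = 2.30e-06). The log2 fold change of GPX2 stayed between -1.98 and -1.57 over the 17 other settings. The gene holds a response element match printed above, whereas NQO1 and TXNIP, also past both thresholds, had an entry without a match. What part the element had in these differences was not tested.

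GPX3 was lower as well, at 64.2 to 71.5 FPKM in sh-NC and 49.9 to 52.2 FPKM in sh-CLGN (-0.39 ± 0.0527, adjusted p = 0.000350), and lost its call after quantile normalization (-0.11, adjusted p = 0.0602). The abundant pair of GPX1 and GPX4 was not called. GPX1 stood at 144.5, 129.3 and 115.1 FPKM in sh-NC and 139.4, 143.9 and 141.2 FPKM in sh-CLGN, so that the sh-CLGN libraries lay inside the range of sh-NC (0.13, 95% interval -0.05 to 0.31, adjusted p = 0.176). GPX1 was called higher with TPM (0.26), read totals (0.33), quantile normalization (0.45) and GC correction (0.43, adjusted p = 0.000187), and without sh-NC replicate 1 (0.21, adjusted p = 0.0195).

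GPX4 stood at 237.8, 218.1 and 187.8 FPKM in sh-NC and 193.1, 183.0 and 201.6 FPKM in sh-CLGN, and the groups overlapped (-0.15, 95% interval -0.35 to 0.05, adjusted p = 0.161). Its sign turned with read totals (0.04), quantile normalization (0.13) and GC correction (0.13, adjusted p = 0.0359), and without sh-NC replicate 3 it was called lower (-0.24, adjusted p = 0.0109). Of the summed FPKM of the 4 peroxidases, GPX4 held 49.9 ± 0.884% in sh-NC, against 49.4 ± 1.33% in sh-CLGN, whereas GPX2 held 4.06 ± 0.273% and 1.13 ± 0.142% (SD, n = 3).

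Of the enzymes that remove superoxide and hydrogen peroxide directly, cytosolic SOD1 stood at 84.1, 80.6 and 80.4 FPKM in sh-NC and 46.4, 46.1 and 45.2 FPKM in sh-CLGN, or 56.2% of the sh-NC mean (-0.82 ± 0.0432, adjusted p = 4.66e-06). Mitochondrial SOD2 stood at 15.8, 17.3 and 18.5 FPKM in sh-NC and 17.9, 17.8 and 16.3 FPKM in sh-CLGN. The groups of SOD1 lay well apart and those of SOD2 overlapped. The interval of SOD2, -0.15 to 0.17 around 0.01 (adjusted p = 0.885), does not overlap that of SOD1 (-0.92 to -0.72), and the difference between the enzymes was not itself tested. SOD2 was called higher with read totals (0.20, adjusted p = 0.0459) and quantile normalization (0.23, adjusted p = 0.0226) and had a value of -0.05 after GC correction. Catalase, CAT, the peroxisomal enzyme, stood at 43.7 to 48.9 FPKM in sh-NC and 36.5 to 38.0 FPKM in sh-CLGN (-0.28 ± 0.0548, adjusted p = 0.00253), and was not called with TPM (-0.16, adjusted p = 0.0630), read totals (-0.09) or quantile normalization (-0.002, adjusted p = 0.979).

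The aldo-keto reductases reduce carbonyl compounds and steroids and are among the strongest NRF2 targets in human cells. AKR1C1 (chr10:4963253-4983283) was the only member called higher. It stood at 13.8, 13.7 and 13.5 FPKM in sh-NC and 23.2, 21.8 and 20.2 FPKM in sh-CLGN, 1.59 times the sh-NC mean (0.63 ± 0.0586, adjusted p = 5.20e-05), and stayed between 0.59 and 0.85 over the 17 other settings. AKR1C2 stood at 7.38, 7.30 and 8.22 FPKM in sh-NC and 8.45, 9.27 and 8.09 FPKM in sh-CLGN, with overlap (0.15, 95% interval -0.01 to 0.32, adjusted p = 0.0860). It was called higher with TPM (0.29), read totals (0.33), quantile normalization (0.27) and without sh-NC replicate 3 (0.20, adjusted p = 0.0306).

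AKR1C1, AKR1C2 and AKR1C3 are similar in sequence, so that some reads can be assigned to the wrong one. Their summed reads do not change with an exchange of reads among the 3. Reads that were dropped as ambiguous or went to other genes are not in this sum. The summed FPKM can change with such an exchange, because the gene lengths differ (8765, 6461 and 4532 bases). The summed reads, not scaled for library size, were 2375, 2473 and 2679 for sh-NC and 4421, 4153 and 3738 for sh-CLGN. That is 1.64 times the sh-NC mean. Scaling by the library size behind the FPKM would lower this ratio, because that size was larger for every sh-CLGN library than for any sh-NC library. The summed level was 21.7 ± 0.372 FPKM and 30.8 ± 1.86 FPKM (SD, n = 3), or 1.42 times. Neither sum overlapped between the groups (p = 0.1 for each in a two-sided exact permutation test, the smallest that 3 against 3 libraries can give). AKR1C3 had 23, 27 and 31 reads in the control libraries and 45, 34 and 29 reads after knockdown and was below the filter. AKR1B10, a reductase of retinal and lipid aldehydes often induced in liver cancer, had 22, 16 and 12 reads in the control libraries and 10, 2 and 4 reads after knockdown, and did not follow AKR1C1. With a filter at a mean of 0.1 FPKM, AKR1B10 entered the test and was called lower (-0.48, adjusted p = 0.0266), on these few reads. AIFM2, also called FSP1, regenerates ubiquinol in membranes and suppresses ferroptosis apart from GPX4. AIFM2 stood at 11.8, 12.2 and 12.3 FPKM in sh-NC and 11.0, 10.7 and 10.5 FPKM in sh-CLGN (-0.16 ± 0.0488, adjusted p = 0.0195), and its sign turned with read totals (0.02) and GC correction (0.07) and its call was lost with TPM (-0.05, adjusted p = 0.548) and quantile normalization (-0.01), and without sh-NC replicate 2, sh-CLGN replicate 2 or sh-CLGN replicate 3 (-0.16 to -0.15, adjusted p = 0.0550 to 0.0752).

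The scaling of the libraries mattered for the smaller differences. The library size implied by the deposited FPKM and the recovered reads was 0.933 to 0.953 times the read total for sh-NC and 1.07 to 1.08 times the read total for sh-CLGN, so that scaling to read totals moved the median of all genes from -0.08 to 0.08. With read totals, 17 members were called lower (48.6%) and 5 higher (14.3%), beside 26.2% and 37.9% of all genes. After GC correction 21 were lower and 6 higher, beside 34.2% and 32.8% of all genes. MAFG, NQO1, OSGIN1, GCLM, GSS, GSR, TXN2, TXNRD1, TXNIP, PGD, TALDO1, TKT, PRDX2, PRDX6, GPX2 and SOD1 were called lower in each of the 17 other settings that test for any change, as AKR1C1 was called higher. Of the 17, median-ratio scaling repeated the deposited scale and tested nothing. The other filters, robust variance and the replicate block left the log2 fold changes of these genes as they were and changed only the p-values. When the null was a 1.2-fold change, MAFG was not called (adjusted p = 0.191) and the other 15 lower genes and AKR1C1 were. These 16 lower genes, which are also the members called lower under each scaling, are 45.7% of those tested, and of all genes tested 23.3% were called lower under each scaling. Shares among abundant genes alone were not computed for the other scalings. Of the tested members, NFE2L2, NQO1, OSGIN1, SRXN1, PRDX1 and PRDX2 share at least 10% of their exon bases with another annotated gene, which apart from MMACHC (mean 4.59 FPKM) had a mean of at most 0.42 FPKM. Reads dropped as ambiguous would not show in the level of either gene.

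**Figure D3:**
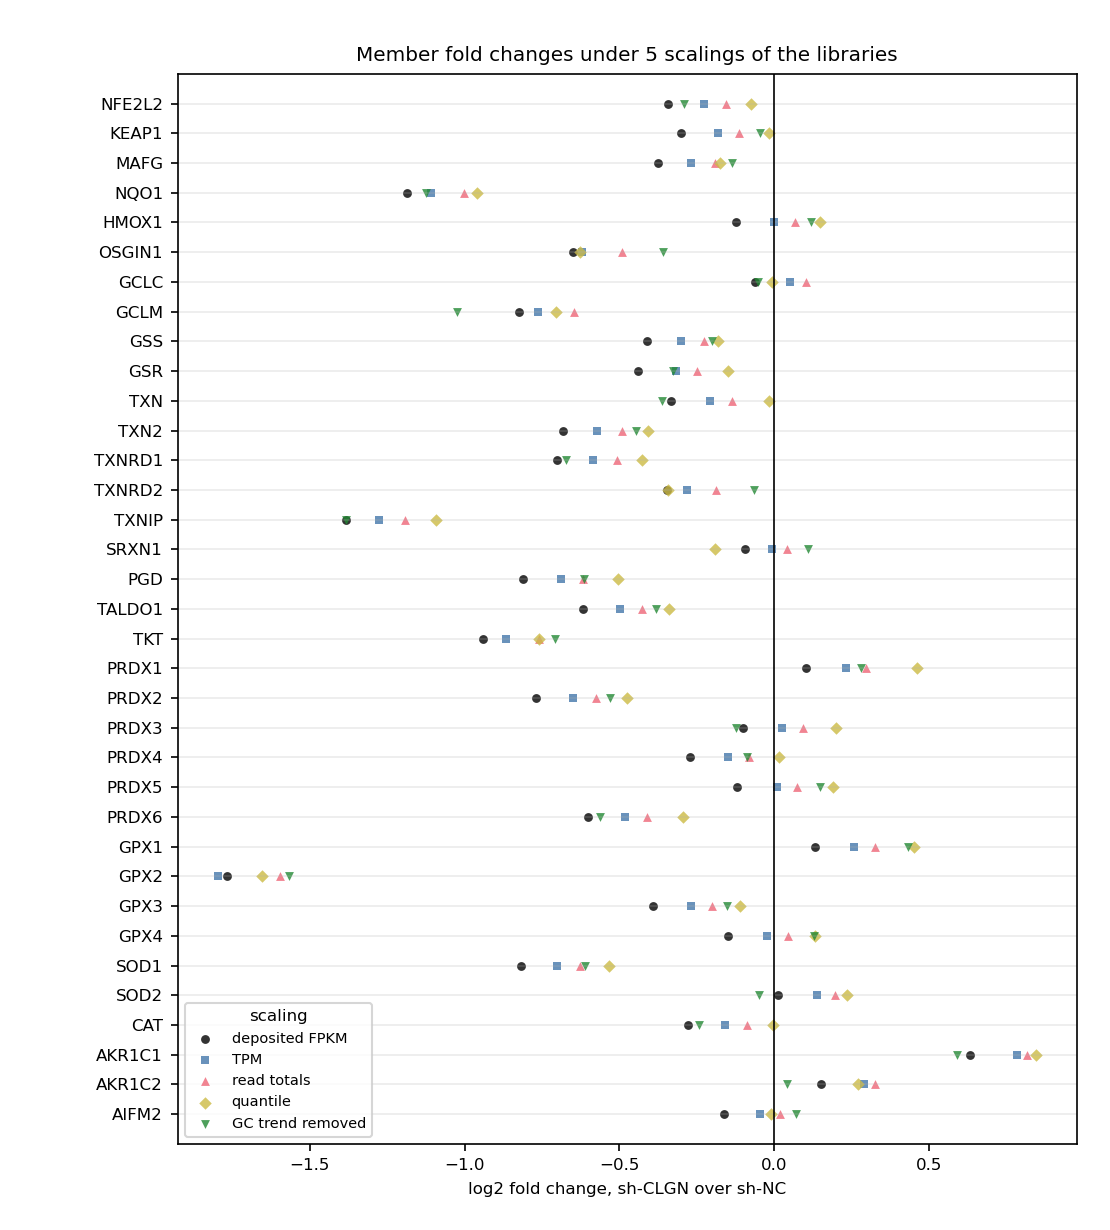
Log2 fold change of the 35 genes tested (sh-CLGN over sh-NC) with the deposited FPKM and 4 other scalings of the libraries, each with its own marker. All markers of NQO1, TXNIP and GPX2 lie left of -0.9, all those of AKR1C1 lie right of 0.5, and those of HMOX1, GCLC, SRXN1, PRDX3, PRDX4, PRDX5, GPX4, SOD2 and AIFM2 fall on both sides of 0.

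Further genes of the system were described by 7 lists written from general knowledge, with earlier results of these data known. Over all 7, counted once each, 142 of 170 genes were tested, of which 69 (48.6%) were lower and 32 (22.5%) higher, with a median log2 fold change of -0.20. These and the shares below stand beside 39.0% lower and 26.7% higher over all genes tested and 57.3% and 17.2% over genes with a mean of at least 10 FPKM. Of 24 tested genes among the other NRF2 targets, 15 (62.5%) were lower and 6 (25%) higher (median -0.44). The lower genes past both thresholds were SESN2, BLVRB and SLC7A11. SLC7A11, the cystine importer that feeds glutathione synthesis, stood at 13.8, 13.2 and 16.6 FPKM in sh-NC and 6.77, 6.01 and 6.60 FPKM in sh-CLGN (-1.05 ± 0.0877, adjusted p = 3.12e-05). BLVRB, a biliverdin reductase, went from 38.5 ± 3.80 to 15.2 ± 0.947 FPKM (SD, n = 3; -1.28, adjusted p = 8.18e-06). SESN2, a stress-induced regulator of mTORC1 that is also a target of ATF4 and p53, went from 65.3 ± 4.76 to 19.4 ± 1.54 FPKM (-1.70, adjusted p = 2.30e-06). The 6 higher genes, by contrast, were ABCC2, ABCG2, EPHX1, UGDH, TRIM16 and TRIM16L, between 0.25 and 0.86.

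Among NRF2's complex and regulators outside the members, 6 of 16 genes (37.5%) were lower and 6 higher (median -0.04). MAFF, a small MAF protein like MAFG, had the largest difference, from 15.3, 15.2 and 13.7 FPKM to 4.45, 4.26 and 4.86 FPKM (-1.51 ± 0.0671, adjusted p = 2.50e-06). In glutathione conjugation, turnover and transport, 10 of 25 tested genes (40%) were lower and 7 (28.0%) higher, near the shares over all genes (median -0.07). CHAC1, an enzyme that degrades glutathione and a target of ATF4, went from 57.5, 53.5 and 46.3 FPKM to 10.1, 10.6 and 10.1 FPKM (-2.24 ± 0.0786, adjusted p = 1.20e-06), and the sh-CLGN mean was 19.6% of the sh-NC mean. GGT5, a gamma-glutamyltransferase family enzyme, was higher, from 11, 8 and 4 reads to 125, 130 and 159 reads (1.13 ± 0.110 on the log2 scale of FPKM + 1, adjusted p = 6.63e-05), and reached the filter through its sh-CLGN libraries.

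Of 28 tested genes of other thioredoxin-fold and redox repair enzymes, 14 (50%) were lower and 6 (21.4%) higher (median -0.26), and the 3 past both thresholds were higher. GPX8, a peroxidase of the endoplasmic reticulum, went from 1.98, 1.54 and 1.57 FPKM to 10.7, 10.5 and 9.62 FPKM, 6.04 times the sh-NC mean (2.06 ± 0.0816, adjusted p = 1.69e-06). SESN3, a sestrin, went from 2.76 ± 0.345 to 8.08 ± 0.727 FPKM (1.27, adjusted p = 1.39e-05), and SOD3, the extracellular superoxide dismutase, from 1.27 ± 0.316 to 3.81 ± 0.429 FPKM (1.09, adjusted p = 0.000124; SD, n = 3). The largest differences within the sestrins, the glutathione peroxidases and the superoxide dismutases thus lay in opposite directions, lower in SESN2, GPX2 and SOD1 and higher in SESN3, GPX8 and SOD3.

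In the NADPH supply list 9 of 15 tested genes (60.0%) were lower, near the share of abundant genes, and none was higher (median -0.20), with no gene past both thresholds. The lowest value was that of MTHFD1L, a mitochondrial enzyme of folate metabolism, at -0.61. The selenoprotein list had 10 of 20 tested genes (50%) lower and 3 (15.0%) higher (median -0.25), and the list of ferroptosis genes beside AIFM2 and GPX4 had 9 of 19 (47.4%) lower and 4 (21.1%) higher (median -0.20). Several genes occur in 2 of the lists.

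**Figure D4:**
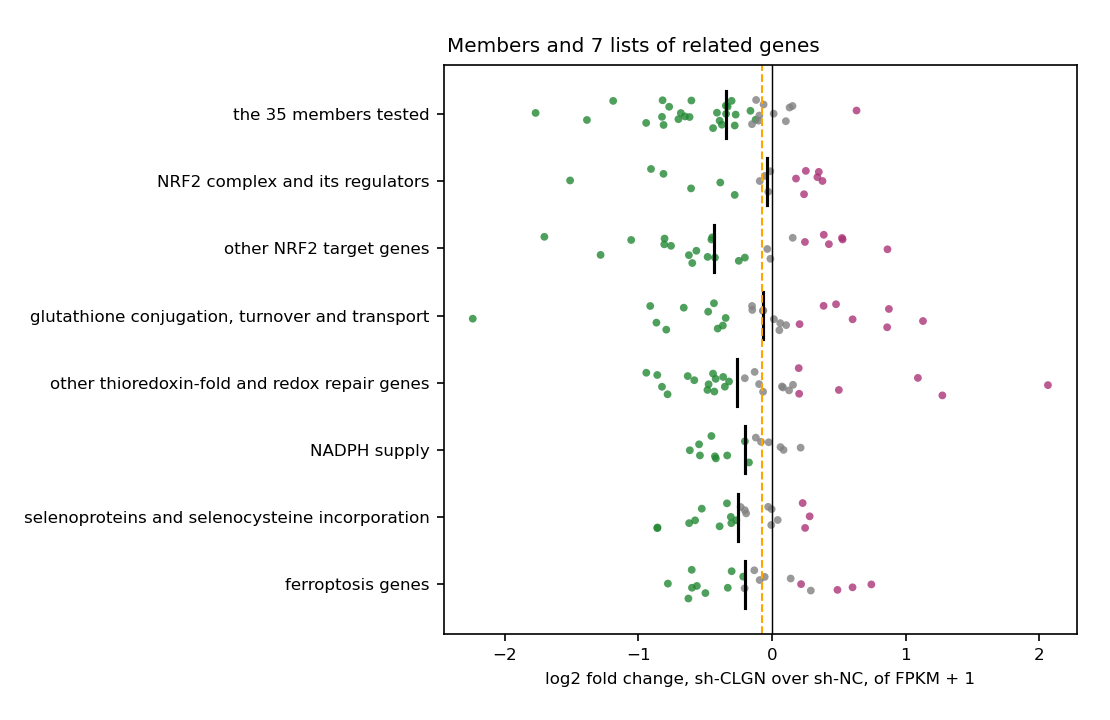
Log2 fold change (sh-CLGN over sh-NC, of FPKM + 1) of each tested gene, by list, with vertical jitter for display. Green points were called lower, purple higher and grey neither, black bars are list medians and the dashed line is the median of all genes tested (-0.08). The medians of the members (-0.35) and of the other NRF2 targets (-0.44) lie furthest to the left.

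All sh-CLGN libraries carry the same hairpin, and its guide strand can act on other transcripts through sites in their 3′ untranslated regions. The word TACCACA matches positions 2 to 8 of the guide inferred from the target in the study's methods, the word ATACCAC matches positions 3 to 9 and the word ACCACAA positions 1 to 7. All were searched in the annotated 3′ untranslated regions of GENCODE release 29. Of the 35 tested members, 12 held at least 1 of them (34.3%), as did 25.8% of the 10907 tested genes with such a region. The 12 were NFE2L2, GCLC, GCLM, GSR, SRXN1, PGD, PRDX4, GPX1, GPX3, SOD2, AKR1C1 and AIFM2. Of these 12, 7 were called lower, with a median log2 fold change of -0.22, and of the 23 members without a site 18 were called lower, with a median of -0.41. Of all genes tested, 39.0% were called lower, and this share was not computed apart for genes with and without a site. For ACCACAA alone the order was the other way, with a median of -0.44 in the 5 members that held it and -0.34 in the others, and over all tested genes the medians were -0.14 with any of the 3 words and -0.12 without. What part the guide had in any of these differences was not tested.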

How the data were processed

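RNA of 6 Hep-G2 libraries (3 sh-NC, 3 sh-CLGN) was sequenced. The submitters' processing notes name HISAT2 2.0.5, featureCounts and the build GRCh38. The authors deposited FPKM per gene and library. The strand setting is not given in the sources used here. Gene positions equalled GENCODE release 29 for all 58735 genes. Reads were recovered from FPKM and gene length.

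Genes that reached 1 FPKM in 3 or more libraries were tested on log2(FPKM + 1) in limma 3.58.1 (R 4.3.3; trend in the variance, two-sided, Benjamini-Hochberg adjustment over 13074 genes), with python 3.11.15 for the rest. In simulated data 196 of 200 genes changed by 1.5 on the log2 scale were recovered, and 5.31% of the genes called were false. The spread was set and not taken from these libraries. Smaller changes, such as the member median of -0.35, were not simulated. Alternatives comprised pseudocount, filters, scalings, voom, robust variance, the replicate block, GC correction, a test against a fold change of 1.2 and leaving out each library. Replicate numbers did not pair the libraries. Named were all members with a row, CLGN, and of each list at most 4 genes past both thresholds. Members and lists were chosen with earlier results of these data known. One gene of the lists is not reported here by name. Others named were chosen after their values were seen.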

Additional observations from a re-analysis of the deposited data

How the results depend on the processing

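The 25 members called lower became 15 when tested against a fold change of 1.2 (MAFG among those lost), 21 with TPM, 17 with read totals, 17 with quantile normalization and 21 with GC correction. In the same order, these are 42.9%, 60.0%, 48.6%, 48.6% and 60.0% of the members tested. Of all genes, 20.2%, 30.0%, 26.2%, 32.5% and 34.2% were lower in these settings. The 1 member called higher became 4 with TPM, 5 with read totals, 8 with quantile normalization and 6 with GC correction. In that order, these are 11.4%, 14.3%, 22.9% and 17.1% of the members, against 32.8%, 37.9%, 30.2% and 32.8% of all genes. Leaving out each library in turn gave 23 to 28 lower and 1 to 2 higher, with 2 members higher without sh-NC replicate 1, sh-NC replicate 3 or sh-CLGN replicate 3. Members past both thresholds numbered 2 to 4 lower and none higher under the 17 settings in which they were counted. The 32 higher genes of the 7 lists became 51 with read totals, and 22 to 32 when each library was left out, without a change in the 69 lower genes beyond 52 to 72. The motif TGACTCA in place of TGACNNNGC was held by 6.90% of the members with a promoter entry. Median-ratio scaling gave the deposited scale again and tested nothing.

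Signs turned for HMOX1 (0.000602 with TPM, 0.0664 with read totals, 0.15 with quantile normalization, 0.12 with GC correction), GCLC (0.0507 with TPM, 0.10 with read totals), SRXN1 (0.0406 with read totals, 0.11 with GC correction), PRDX3 (0.0257 with TPM, 0.0927 with read totals, 0.20 with quantile normalization), PRDX4 (0.0171 with quantile normalization), PRDX5 (0.00789 with TPM, 0.0755 with read totals, 0.19 with quantile normalization, 0.15 with GC correction), GPX4 (0.0446 with read totals, 0.13 with quantile normalization, 0.13 with GC correction), AIFM2 (0.0182 with read totals, 0.0724 with GC correction) and SOD2 (-0.0500 with GC correction, and between -0.0443 and 0.0635 with single libraries left out, below 0 without sh-NC replicate 1, sh-CLGN replicate 1 or sh-CLGN replicate 2). TPM and read totals moved the median of all genes to 0.03 and 0.08. What moved the remaining values was not tested.

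The replicate block gave 23 members lower (65.7%) and 1 higher (2.86%), beside 36.4% and 25.1% of all genes. HMOX1 (adjusted p = 0.0921) and AIFM2 (adjusted p = 0.0625) lost their calls. Deviations from the group means correlated between same-numbered libraries by -0.02, -0.05 and -0.15 and share only a number. CLGN stayed lower past the threshold in each of the 17 settings, from -1.44 to -1.12. Depth limits AKR1B10 and AKR1C3, with 2 to 45 reads per library, and SRXN1.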

Other observations

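Several genes of the lists lay below the filter, and some had more reads in every sh-CLGN library than in any sh-NC library. The genes named here were chosen after their values were seen. GSTT2B, a glutathione transferase, had 3, 5 and 2 reads in the control libraries against 16, 15 and 17 after knockdown. DIO1, the hepatic deiodinase of thyroid hormone, had 3, 6 and 5 reads in the control libraries against 21, 14 and 16 after knockdown. ALDH1L1, a folate enzyme that yields NADPH, had 34, 41 and 29 reads in the control libraries against 71, 81 and 64 after knockdown. The pattern is common among genes outside the filter: of 9013 with at least 10 reads in all, 32.6% had FPKM above all sh-NC libraries in all sh-CLGN libraries and 7.02% had it below them. ALOX15, a lipoxygenase linked to lipid peroxidation, was among the latter, with 10, 12 and 17 reads in the control libraries against 3, 4 and 8 after knockdown.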
